A study of Caenorhabditis elegans with 6 samples.

Results

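The 8 genes described here belong to the Argonaute family of the Caenorhabditis elegans germ line: prg-1, prg-2, csr-1, hrde-1, wago-1, wago-4, ergo-1 and vsra-1. All but prg-2, which is annotated as a pseudogene, are protein-coding. They were taken from a list of symbols, and all 8 of 8 were found among the 46934 gene identifiers of the count tables. RNA came from dissected gonads of young adults, 12 h after the L4 larval stage, in 3 wild-type and 3 sin-3(tm1276) libraries. Each library pooled the distal arms of 5 to 7 animals, which hold mitotic and early meiotic germ cells with the somatic gonad cells around them. The mutants carried the tm1276 allele of sin-3, the scaffold gene of a histone deacetylase complex, and the labels name no other allele, transgene or treatment in either group. Nothing in the labels ties the 3 libraries of a genotype to separate cultures, and the p-values given here therefore measure the spread among these libraries, which may be technical.

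Argonautes are proteins that hold a small RNA and use it to find matching transcripts. In the worm germ line PRG-1, a Piwi protein, carries piRNAs and surveys transcripts, and the silencing it starts is passed to worm-specific Argonautes (WAGOs) loaded with amplified small RNAs. Among these, WAGO-1 works in the cytoplasm at P granules, HRDE-1 carries silencing into the nucleus and across generations, and WAGO-4 acts at Z granules in inherited RNAi. CSR-1 binds small RNAs against genes that the germ line expresses, ERGO-1 binds a class of primary small RNAs made with Dicer, and VSRA-1 is a less studied member of the family.

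Germ cell markers were present throughout, with a summed level of 3600 to 3840 CPM in wild-type and 3410 to 3510 CPM in mutant libraries for the 10 listed genes (CPM is counts scaled to a common library size, here with TMM, the trimmed mean of M values). The targeted gene sin-3 had 364.9 ± 5.71 CPM in wild-type libraries and 179.7 ± 4.27 CPM in mutant ones (SD, n = 3), and every mutant library was lower. Gene-assigned reads ranged from 24491014 to 30634455 per library. The summed level of 12 somatic gonad markers was 265 to 289 CPM in wild-type and 546 to 589 CPM in mutant libraries, and none of these markers was at 0. The largest terms were let-2, at means of 100 and 222 CPM, and emb-9, at 73.2 and 174.2 CPM. Of the 9 markers tested 8 rose and mup-2 was not called. tnc-2, not tested, had 8, 34 and 28 reads in wild-type libraries 1 to 3 and 8, 10 and 7 in those of the mutant. The part of this summed level in the results that follow was not tested. In RNA of pooled distal arms, fewer cells of a type and less RNA per cell cannot be told apart.

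All 8 genes passed the filter on low counts, and all lie on autosomes. In the mutant 1 gene rose, 3 fell and 4 were not called by the edgeR quasi-likelihood test at a Benjamini-Hochberg adjusted p of 0.05 over all 9787 genes tested. The gene that rose was vsra-1, and those that fell were ergo-1, wago-1 and hrde-1. Of all genes tested 62.0% were called, 31.3% higher and 30.7% lower, so the 4 of 8 genes called are not above the background. The libraries of the genotypes did not overlap for 5 of the 8 genes, 2 with the mutant higher and 3 with it lower, beside 67.8% of all genes tested, 34.8% higher and 33.0% lower. Their median log2 fold change was -0.018, beside 0.028 over all genes tested. When libraries were scaled by their totals, which moved all log2 fold changes up by a median of 0.17, prg-1, csr-1 and vsra-1 were called higher and ergo-1 alone of the 8 was called lower, where of all genes tested 45.4% were called higher, 1864 genes lower and 64.5% either way. With TMM scaling on autosomal genes alone hrde-1 lost its call (adjusted p = 0.054).

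**Figure D1:**
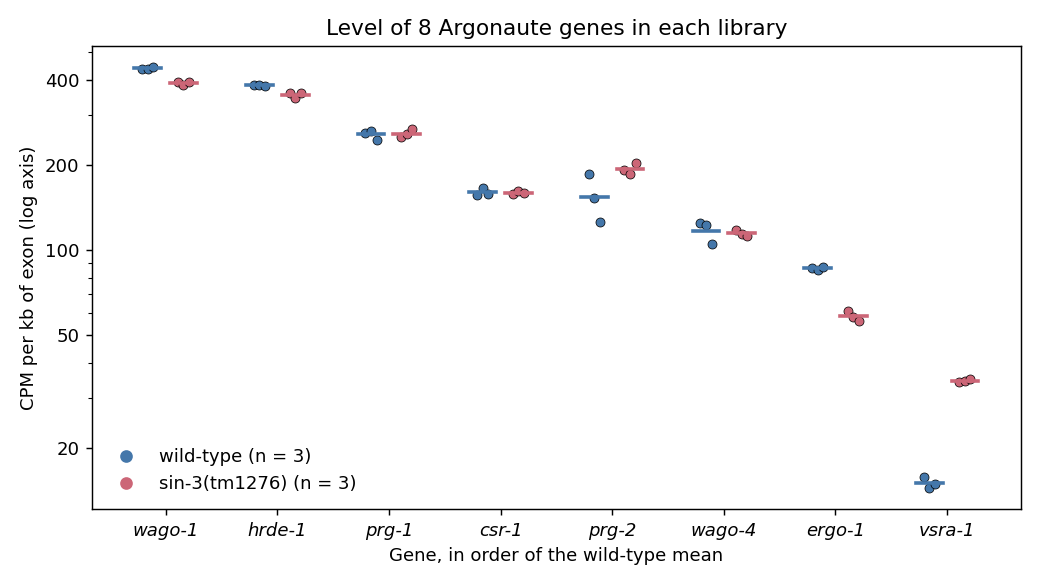
Level of each Argonaute gene in every library, in CPM per kb of exon on a log axis; points are libraries, bars are means, and genes stand in the order of their wild-type mean. wago-1 is at the top with a wild-type mean of 439.4 and vsra-1 at the bottom with 15.1; the vsra-1 points of the mutant lie above, and those of ergo-1 below, all wild-type points.

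Per length of exon, wago-1 and hrde-1 were the most abundant of these genes and vsra-1 by far the least. In wild type the level was 439.4 ± 4.22 CPM per kb for wago-1, 382.6 ± 1.73 for hrde-1 and 256.4 ± 9.77 for prg-1 (SD, n = 3). These 3 genes stood above 98.3%, 98% and 97.1% of the genes tested, in that order. The level was 160.1 ± 4.94 CPM per kb for csr-1, 154.5 ± 29.9 for prg-2, 117.3 ± 10.7 for wago-4, 86.4 ± 1.17 for ergo-1 and 15.1 ± 0.71 for vsra-1 (SD, n = 3). Every neighbouring pair in this order had separate ranges in wild type except csr-1 and prg-2, whose libraries overlapped. Those of prg-2 and wago-4 were separated by little, at a lowest prg-2 library of 125.5 and a highest wago-4 library of 124.4 CPM per kb.

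The order in the mutant was the same except that prg-2 stood above csr-1, and there all neighbours had separate ranges. The distance between the lowest pair shrank: ergo-1 was 5.74 times the level of vsra-1 in wild type and 1.69 times in the mutant. Summed over the 8 genes the level was 1650, 1624 and 1561 CPM per kb in wild-type libraries 1 to 3, beside 1568, 1541 and 1586 in those of the mutant. The sums of the genotypes overlapped, and the log2 ratio of their means was -0.043 under TMM and 0.12 under library totals. The share of vsra-1 in this sum went from 0.934% ± 0.040 to 2.21% ± 0.025 (SD, n = 3), while ergo-1 went from a mean of 5.36% to 3.74%.

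The gene vsra-1 (WBGene00007297, chromosome I, 9673664 to 9678557 on the minus strand in WBcel235, 3088 exon bases) had 1148, 1029 and 1088 reads in wild-type libraries 1 to 3. It had 2748, 3384 and 3083 reads in mutant libraries 1 to 3. Scaled, these were 48.8, 44.5 and 46.1 CPM against 105.6, 106.2 and 108.1 CPM. Every mutant library stood above every wild-type library, and the mutant libraries lay close together, with a coefficient of variation of 1.23%. The rise was 2.29-fold, or 1.20 ± 0.043 (SE) on the log2 scale (edgeR adjusted p = 5.7e-11). Of all genes tested 8.24% had a larger absolute change. vsra-1 overlaps no other annotated gene, and its level per kb went from above 48.9% to above 62.9% of the genes tested. In the authors' deposited table its log2 fold change was 1.16 ± 0.065 (SE).

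The primary small RNA Argonaute gene ergo-1 (WBGene00019971, chromosome V, 1008803 to 1018352, plus strand, 4 annotated transcripts) moved the other way. Its level was 316.5, 311.1 and 319.5 CPM in wild-type libraries 1 to 3 and 223.2, 212.8 and 205.7 CPM in mutant libraries 1 to 3, and the groups did not overlap. It fell by 32.3%, or -0.56 ± 0.036 (SE) on the log2 scale (edgeR adjusted p = 1.1e-08). Of all genes tested 30% had a larger absolute change, and 53.8% of the genes within 1 log2 unit of its mean level were called lower. ergo-1 shares 17 bases at its end with pei-2 on the other strand, which had 1.75 ± 0.36 CPM in wild-type and 2.18 ± 0.31 CPM in mutant libraries (SD, n = 3). The call and direction of vsra-1 and ergo-1 held in all 13 alternative fits run, at log2 fold changes of 1.16 to 1.36 and of -0.59 to -0.40.

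Both of the most abundant members, wago-1 and hrde-1, were lower by small amounts under TMM. wago-1 (WBGene00011061, chromosome I, 7235384 to 7238792) was at 1337, 1333 and 1357 CPM in wild-type libraries 1 to 3 and 1204, 1172 and 1205 CPM in mutant libraries 1 to 3. hrde-1 (WBGene00007624, chromosome III, 4172337 to 4176159) had 1355, 1358 and 1347 CPM in the wild-type libraries against 1273, 1222 and 1267 CPM in the mutant. Neither gene's groups overlapped, and the wild-type libraries of hrde-1 differed by less than 1% (coefficient of variation 0.451%). The log2 fold changes were -0.17 ± 0.030 and -0.11 ± 0.031 (SE), with edgeR adjusted p values of 0.00022 and 0.0063. Under scaling by library totals neither was called, at -0.0024 for wago-1 (adjusted p = 0.96) and 0.057, the other direction, for hrde-1 (adjusted p = 0.18). Under TMM the 165 genes within 1 log2 unit of the mean level of wago-1 had a median log2 fold change of -0.30, and 77% of them were called lower. For the 164 genes around hrde-1 the median was -0.31.

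**Figure D2:**
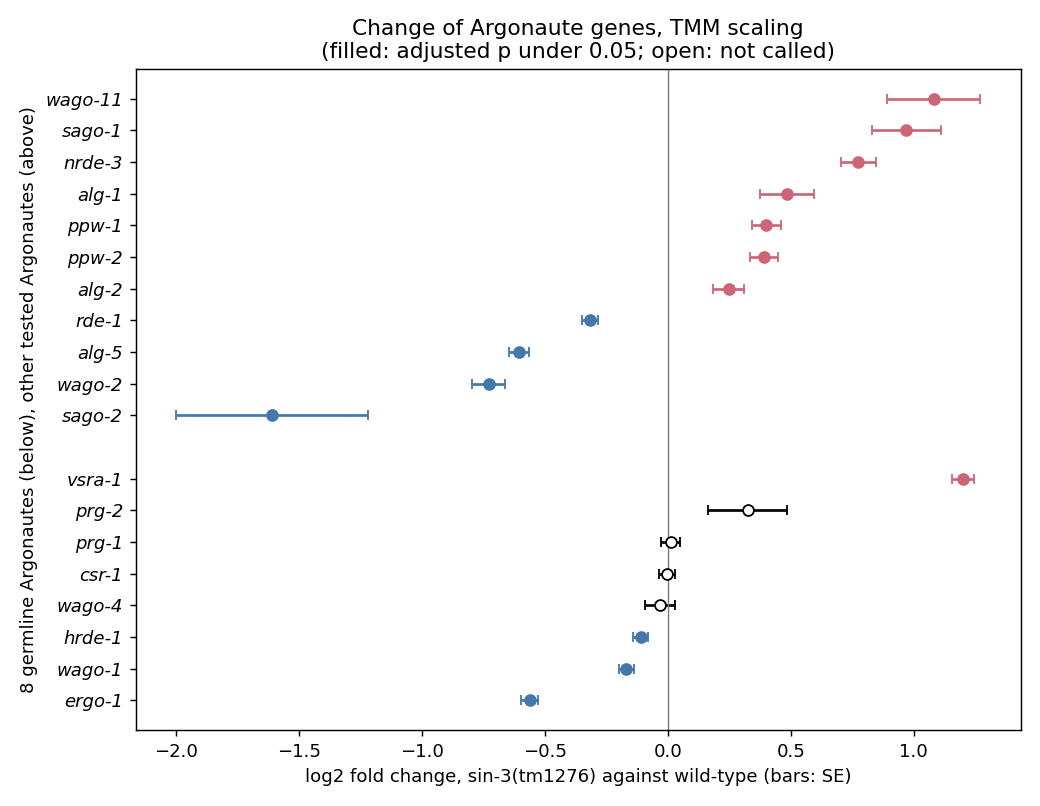
Log2 fold change of the mutant against wild type under TMM scaling for the 8 germline Argonautes and the 11 other Argonaute genes tested; bars are standard errors, filled points passed an adjusted p of 0.05 in edgeR. Among the 8, vsra-1 at 1.20 and ergo-1 at -0.56 lie farthest from 0; among the others all points are filled, 7 to the right and 4 to the left.

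The genes csr-1, prg-1 and wago-4 were not called. csr-1 (WBGene00017641, chromosome IV, 7957267 to 7962157, 3 annotated transcripts) was at 574.2, 607.8 and 579.2 CPM in wild-type libraries 1 to 3 and 579.0, 591.9 and 584.8 CPM in mutant libraries 1 to 3. The groups overlapped, and the log2 fold change was -0.0046 ± 0.032 (SE) under TMM but 0.16 under library totals, where the gene was called higher (adjusted p = 0.00075). A count per gene does not separate its long and short isoforms. The annotation places 438 of its 3668 exon bases, 11.9%, under exons of frpr-10 on the same strand. That gene had at most 1 read in any library, and reads over both genes were kept out of gene counts, so the level of csr-1 may be understated.

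prg-1 (WBGene00004178, chromosome I, 7585329 to 7588367) was at 694.7, 702.4 and 653.9 CPM in wild-type libraries 1 to 3 and 668.2, 685.4 and 713.5 CPM in mutant libraries 1 to 3. The groups overlapped, at 0.011 ± 0.037 (SE) on the log2 scale and an edgeR adjusted p of 0.80, and the gene was called higher under library totals at 0.18 (adjusted p = 0.00085). wago-4 (WBGene00010263, chromosome II, 12919551 to 12923377) had 419.0, 412.8 and 353.7 CPM in the wild-type libraries against 396.9, 385.4 and 377.6 CPM in the mutant. Its groups overlapped as well, with a log2 fold change of -0.032 ± 0.060 (SE). Wild-type replicate 3 was the lowest of the 6 libraries for both genes. Without that library wago-4 was called lower, at -0.11 with an adjusted p of 0.014 in edgeR, and the direction turned, at 0.0071 and not called, without wild-type replicate 1.

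The Piwi paralogue prg-2 (WBGene00004179, chromosome IV, 6526962 to 6529802, minus strand) is annotated as a pseudogene in both Ensembl and RefSeq, and its symbol was matched through RefSeq at identical coordinates. It was nevertheless well counted, with 11001, 8915 and 7485 reads in wild-type libraries 1 to 3 and 12622, 14961 and 14609 reads in mutant libraries 1 to 3. Scaled, it had 467.9, 385.8 and 317.0 CPM in the wild-type libraries against 485.0, 469.6 and 512.3 CPM in the mutant. The mutant libraries lay above the wild-type ones, but the lowest mutant library exceeded wild-type replicate 1 by less than 2 CPM. The log2 fold change was 0.33 ± 0.16 (SE) and it was not called (adjusted p = 0.15 in edgeR and 0.13 in DESeq2). In the authors' deposited table the adjusted p was 0.067. Without wild-type replicate 1 the gene was called higher, at 0.47 with an adjusted p of 0.0061, and without wild-type replicate 3 the log2 fold change was 0.19 and not called (adjusted p = 0.14).

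The wild-type libraries were spread far more widely for prg-2 than for most genes. Their coefficient of variation was 19.4%, above 99.2% of the 635 genes within 1 log2 unit of its level, whose median was 2.70%. In the mutant it was 4.43%. wago-4 came next among the 8 genes, at 9.12% in wild type, above 96.6% of genes of like level. Summed intestine markers, which come from outside the gonad, were at 171, 323 and 449 CPM and muscle markers at 120, 222 and 231 CPM in wild-type libraries 1 to 3, and their part in the spread of prg-2 was not tested. prg-1 and prg-2 are close relatives, and reads with several alignments, 5.46% to 7.93% of all counted reads, were kept out of gene counts, so the division of reads between the 2 genes is uncertain.

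**Figure D3:**
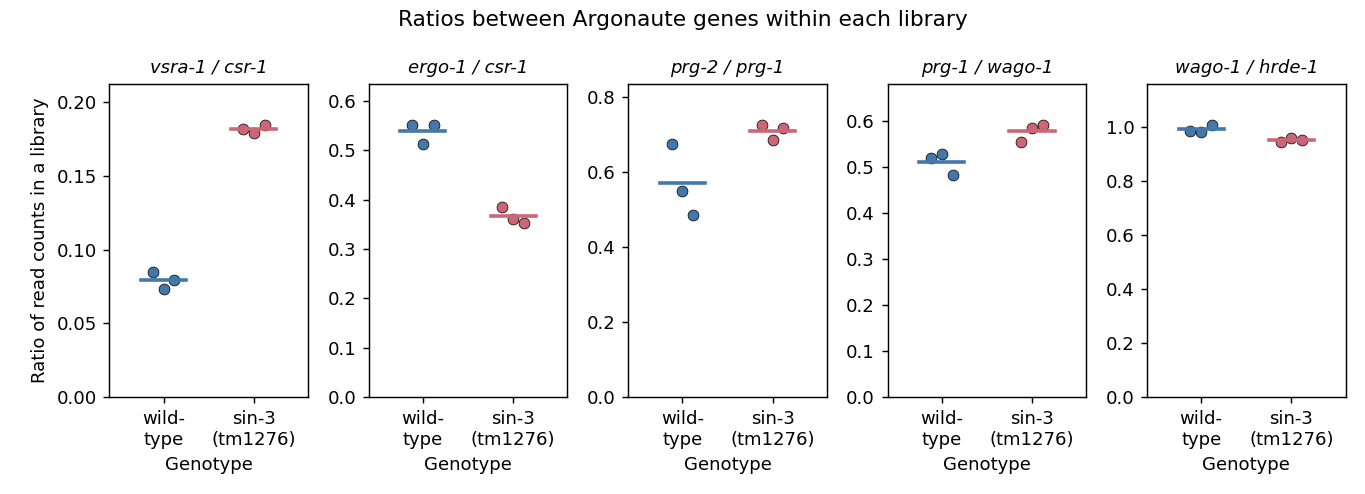
Ratio of the read counts of 2 Argonaute genes within each library, by genotype; points are the 3 libraries of a genotype, bars their mean, and each axis starts at 0. The ratio of vsra-1 to csr-1 is higher and that of ergo-1 to csr-1 lower in every mutant library, with changes of 130% and -32% of the wild-type mean; in percent of their own wild-type means the other ratios shift by less, at most by 24.6% for prg-2 to prg-1.

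Ratios of reads between members within a library do not depend on how libraries are scaled, and they showed that the genes changed unequally. Reads of vsra-1 per read of csr-1 were 0.0850, 0.0733 and 0.0795 in wild-type libraries 1 to 3 and 0.182, 0.179 and 0.185 in mutant libraries 1 to 3. For ergo-1 per csr-1 the ratios were 0.551, 0.512 and 0.552 in wild type and 0.386, 0.360 and 0.352 in the mutant. Neither pair of groups overlapped. The ratio of prg-1 to wago-1 went from 0.510 ± 0.024 to 0.577 ± 0.020 and that of wago-1 to hrde-1 from 0.993 ± 0.015 to 0.952 ± 0.0066 (SD, n = 3), again with no overlap. The ratio of prg-2 to prg-1 was 0.674, 0.549 and 0.485 in wild type and 0.726, 0.685 and 0.718 in the mutant. Its wild-type replicate 1 lay close to the mutant libraries and the other two well below them.

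**Figure D4:**
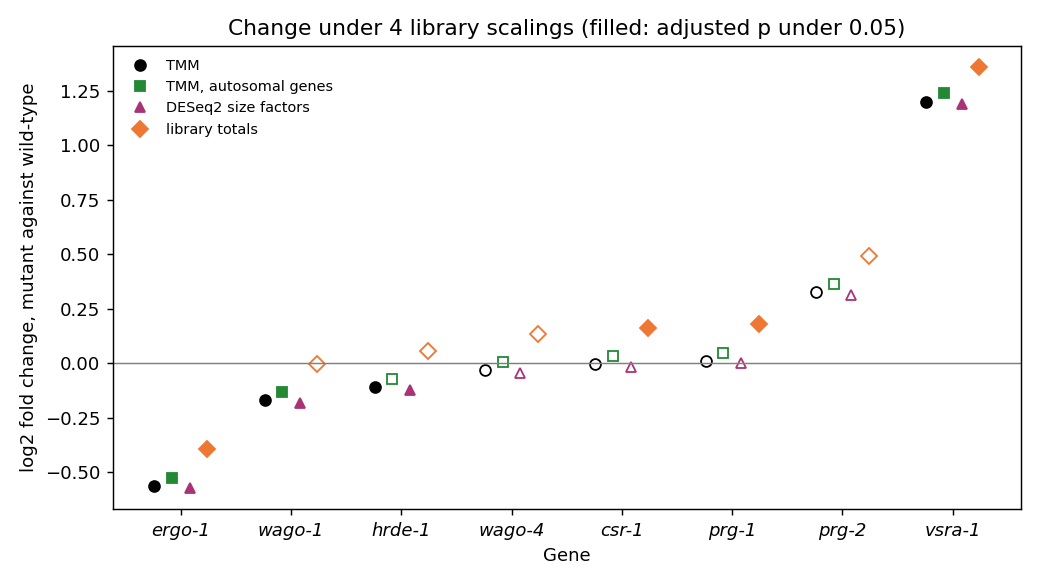
Log2 fold change of the 8 Argonaute genes under 4 ways of scaling libraries; filled symbols passed an adjusted p of 0.05 in edgeR. vsra-1 and ergo-1 stay on their side of 0 and filled under all 4, whereas hrde-1, wago-4, csr-1 and prg-1 lie on both sides of 0 and wago-1 is at -0.0024 under library totals.

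Other Argonaute genes of the worm moved in both directions. Of 15 further Argonaute genes matched, 11 passed the filter, of which 7 rose and 4 fell, with the same counts under library totals. The median log2 fold change of these 11 genes was 0.39 beside 0.028 over all genes, of which 62.0% were called. The microRNA Argonaute genes divided: alg-1, which is X-linked, rose from 12.0 ± 0.31 to 16.8 ± 2.70 CPM and alg-2 from 32.8 ± 1.82 to 39.0 ± 1.82 CPM, whereas alg-5 fell from 229.3 ± 11.2 to 150.6 ± 3.84 CPM (SD, n = 3). Among secondary Argonautes, the X-linked gene nrde-3, known for nuclear RNAi in the soma, rose from 19.9 ± 1.57 to 34.1 ± 1.59 CPM and sago-1 from 4.62 ± 0.58 to 9.08 ± 0.95 CPM (SD, n = 3). ppw-1 had a log2 fold change of 0.40 ± 0.059 and ppw-2, also known as WAGO-3, one of 0.39 ± 0.056 (SE). rde-1, which binds the primary small RNAs of introduced double-stranded RNA, fell from 189.8 ± 3.23 to 152.4 ± 2.44 CPM (SD, n = 3).

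RefSeq lists wago-2 and wago-11 as pseudogenes, as it does prg-2. wago-2 fell from 458.7 ± 44.0 to 277.1 ± 10.4 CPM and wago-11 rose from 1.74 ± 0.089 to 3.68 ± 0.61 CPM (SD, n = 3). sago-2, which went from 1.08 ± 0.18 to 0.358 ± 0.23 CPM (SD, n = 3), was the lowest of the tested Argonaute genes and had few reads, between 5 and 30 per library. The 4 genes not tested were alg-3 and alg-4, Argonautes of sperm formation, with wago-5 and wago-10. They had at most 7 reads in any library, and wago-10 had 0 in every library, which allows up to 0.0942 to 0.130 CPM at 3 counts.

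Genes that make or use the small RNAs of these Argonautes were counted in 6 lists, to be read beside the 31.3% of all genes tested that were called higher and the 30.7% called lower. The share called lower was greater among highly expressed genes, at 47.2% of the genes within 1 log2 unit of the level of vsra-1, 53.8% around ergo-1 and 78.7% around hrde-1. Of 14 piRNA factors 12 fell, 1 rose and 1 was not called, at a median of -0.37 on the log2 scale, or -0.21 under library totals (9 lower, 2 higher). tofu-2, required for piRNA precursors to be processed, had a log2 fold change of -0.67 ± 0.037 and pid-3, of the complex that processes precursors, one of -0.64 ± 0.039 (SE). The 1 that rose was prde-1, which acts in piRNA gene transcription, from 43.4 ± 0.50 to 58.8 ± 3.11 CPM (SD, n = 3).

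All 4 genes of the CSR-1 branch fell, with a median of -0.33, and under library totals 3 fell. They were cid-1, a nucleotidyl transferase gene, at -0.42 ± 0.033, ekl-1 at -0.38 ± 0.037, the RNA-dependent RNA polymerase gene ego-1 at -0.28 ± 0.030 and the helicase gene drh-3 at -0.14 ± 0.031 (SE). Of 11 genes of the ERGO-1 branch 9 fell and 1 rose, with a median of -0.41, or -0.24 under library totals (7 lower, 1 higher). henn-1, which encodes the methyltransferase that protects the ends of piRNAs and of ERGO-1 small RNAs and is counted in both lists, fell from 74.4 ± 2.24 to 43.4 ± 2.33 CPM, and the Dicer gene dcr-1 fell from 363.6 ± 4.66 to 267.1 ± 6.57 CPM (SD, n = 3). eri-9 rose from 120.3 ± 4.85 to 162.1 ± 6.77 CPM (SD, n = 3).

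**Figure D5:**
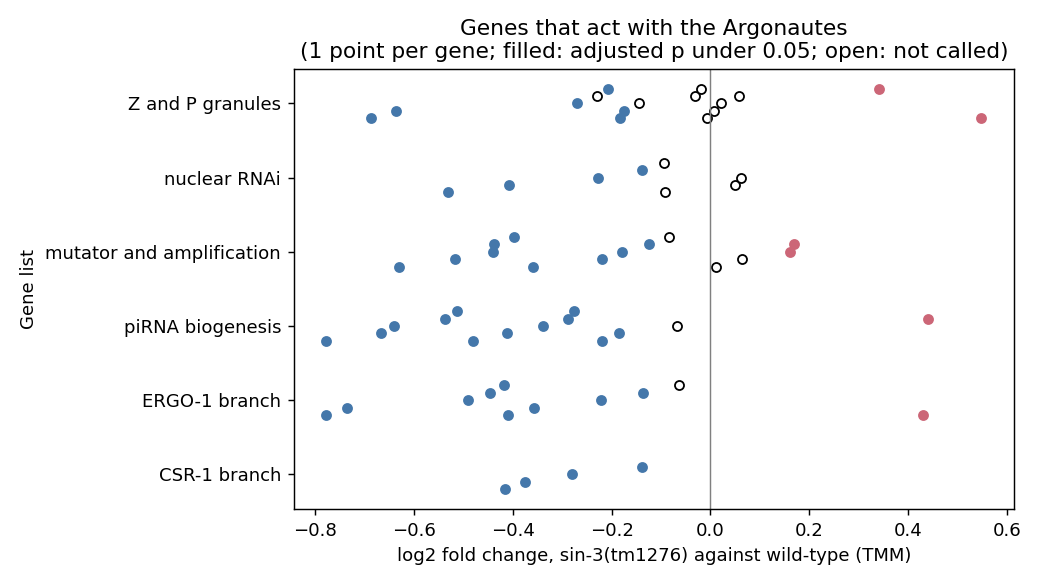
Log2 fold change under TMM of each tested gene in 6 lists of genes that act with the Argonautes; filled points passed an adjusted p of 0.05 in edgeR. All 4 points of the CSR-1 branch lie left of 0, as do 13 of 14 piRNA factors; points of the Z and P granule list lie on both sides.

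Of 14 mutator and amplification genes, which produce the small RNAs loaded onto WAGO proteins, 9 fell and 2 rose, with a median of -0.20. rde-8 was at -0.63 ± 0.049 and smut-1 at -0.52 ± 0.041 (SE), and the pair that rose was mut-7 and rde-11, at 0.16 ± 0.035 and 0.17 ± 0.045 (SE). Under library totals 6 were lower and 4 higher, at a median of -0.032. Of 8 nuclear RNAi genes, the partners of HRDE-1, 4 fell and 0 rose in edgeR, or 2 and 2 under library totals, where the median turned from -0.12 to 0.050. The 4 of 8 that fell are near the 53.8% called lower among genes around the level of ergo-1. nrde-4 had a log2 fold change of -0.53 ± 0.038 and hrde-2 one of -0.41 ± 0.046 (SE).

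Of 16 genes of Z and P granules, where WAGO-1, WAGO-4, PRG-1 and CSR-1 reside, 6 fell and 2 rose, and under library totals 3 fell and 8 rose, with the median going from -0.088 to 0.078. The other 8 were not called under TMM. The 6 lower under TMM and 8 higher under library totals lie near the shares of all genes tested, 30.7% and 45.4% in that order. Among genes of like level the TMM share called lower was greater, at 47.2% around vsra-1, 53.8% around ergo-1 and 59.3% around prg-1. The 6 of 16 are a smaller share than these. The 2 of 16 that rose under TMM are to be read beside 31.3% of all genes tested. Around vsra-1, ergo-1 and prg-1 the share called higher was lower than that, at 25.1%, 21.4% and 19.3%. Whether 2 of 16 differs from these shares was not tested. pid-4 fell from 63.5 ± 2.55 to 39.5 ± 3.10 CPM and the helicase gene glh-2 from 201.1 ± 14.7 to 129.4 ± 3.58 CPM (SD, n = 3). Those that rose under TMM were the X-linked genes meg-3 and meg-4. Any part of X linkage in these rises, or in those of alg-1 and nrde-3, was not tested. In the same libraries 8 of the 9 somatic gonad markers tested rose, at a median of 1.2, and of 10 germ line markers 5 were lower and 1 higher, with a median of -0.16, or 1 lower and 4 higher with a median of 0.0054 under library totals. Some genes named here are not among the 2 with the smallest p in their list and were chosen after their values were seen. Of these, prde-1, eri-9, mut-7, rde-11, meg-3 and meg-4 were named because few genes of their list were called in that direction. The others, ego-1 and drh-3, complete the CSR-1 branch, of which all 4 genes were called lower.

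Genes whose profile over the 6 libraries was most like that of a member were sought among 4015 named protein-coding genes averaging 5 CPM or more, by Pearson's r of log2 CPM. For vsra-1 it was lsm-3 (chromosome IV), a gene for an Lsm protein that binds RNA, with r = 0.9997, which went from 56.1 ± 1.76 to 90.3 ± 0.60 CPM (SD, n = 3). For ergo-1 it was the nonsense-mediated decay gene smg-6 (chromosome III), with r = 0.9994, which went from 81.8 ± 0.83 to 42.7 ± 2.77 CPM (SD, n = 3). For wago-1 it was hmg-4, a chromatin factor gene, with r = 0.9993, and for hrde-1 the histone gene his-48, with r = 0.994. Since these profiles follow the genotype, many genes come close: 105 genes had r over 0.99 with vsra-1, 199 with ergo-1 and 89 with wago-1. For members that were not called the best match was weaker, with unc-57 for prg-1 at r = 0.9547, tgt-2 for csr-1 at 0.9544 and ctl-3 for wago-4 at 0.9782. prg-2 was matched best by spl-3 (chromosome IV), with r = 0.9903. spl-3 had 56.9, 53.5 and 50.6 CPM in wild-type libraries 1 to 3 and 56.9, 57.7 and 58.9 CPM in mutant libraries 1 to 3. Its log2 fold change was 0.11 and it was not called (edgeR adjusted p = 0.075). Each match is the highest of 4015 values of r over 6 libraries, so a high r alone shows no link between 2 genes.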

How the data were processed

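The authors deposited 1 table of read counts per gene for each library, whole numbers with no normalization, and a table of their own comparison with log2 fold changes, their errors (a score here) and p-values, per the file headers; 1 other column of it was not used. Libraries were stranded, made from total RNA depleted of ribosomal RNA, with single-end reads of 50 bases, per the labels' protocols. The submitters' processing notes list DESeq2 1.36.0, HTSeq 0.7.2, STAR 2.7.3a and fastp 0.20.1 without their roles. No source used here gives the build, annotation or strand setting, so coordinates are those of the matched identifier in Ensembl release 115 (46923 of 46934 matched).

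Lines naming no gene, 8.73% to 10.9% of reads, were left out of library sizes. A count of 0 allows up to 3 counts, covering counting error only. The test of the counts was run with edgeR 4.0.16 under R 4.3.3 (filterByExpr, TMM, robust quasi-likelihood F test on genotype, Benjamini-Hochberg over 9787 genes). Standard errors are the log2 fold change over the root of F, and exon length is the union of annotated exons. Pairs of libraries within a genotype differed by a chi-square of 12.5 to 18.8 per degree of freedom, so none is a copy. On simulated data for this comparison, with 9633 genes tested, 50 genes were changed at each size tried. Of those raised and lowered by 0.5 on the log2 scale 94% and 92% were recovered, with 5 false calls. In the data 62.0% of genes tested were called, so these rates may not carry over. Changes as small as those of wago-1 and hrde-1 were not simulated. Alternatives were library scaling, the filter, DESeq2 1.42.0, a replicate block and leaving out each library. The members and lists were chosen with earlier results of these data known. The rule for named genes took the members, sin-3, all other tested Argonautes, the 2 genes with the smallest p in each list and the best-matching gene for each member; the report says which other list genes it names. A symbol naming no gene of the annotation, or a second symbol of a gene already listed, added no gene.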

Additional observations from a re-analysis of the deposited data

How the results depend on the processing

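The calls and directions of vsra-1 and ergo-1 held in all 13 alternatives. Scaling by library totals gave 3 members higher and 1 lower in place of 1 and 3, a log2 ratio of the summed level of 0.12, and reversed csr-1 (0.16), hrde-1 (0.057) and wago-4 (0.14). In the lists it gave 2 higher piRNA factors, 4 higher mutator genes, 2 higher and 2 lower nuclear RNAi genes, and 8 higher and 3 lower granule genes. Further reversals, none of a call, were csr-1 at 0.032 and wago-4 at 0.0057 with TMM on autosomal genes, csr-1 at 0.0039 with no filter, csr-1 at 0.063 and wago-4 at 0.037 among genes of at least 5 CPM, and prg-1 at -0.00073 with DESeq2 size factors and -0.013 in DESeq2. hrde-1 lost its call with TMM on autosomal genes (adjusted p = 0.054) and among genes of at least 5 CPM (-0.042, adjusted p = 0.25). The cause was not tested. With single libraries left out, members called higher numbered 1 to 2 and lower 3 to 4; log2 fold changes ranged from -0.026 to 0.032 for prg-1, from -0.026 to 0.014 for csr-1, from -0.11 to 0.0071 for wago-4 and from 0.19 to 0.47 for prg-2.

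The replicate numbers share no stated batch, and same-numbered libraries did not deviate together (r = -0.26, -0.075 and -0.13), none correlating best with its own number. With a replicate block 2906 genes were higher and 2935 lower, and 1 member was higher and 3 lower, the same genes. The TMM changes of wago-1 (-0.17) and hrde-1 (-0.11) are of the size of the median shift of 0.17 between TMM and library totals; depth as a limit was not tested.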
